A study of Drosophila melanogaster with 4 samples.

Results

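The genes described here are those of the cell cycle and of DNA replication: cyclins and their kinases, spindle checkpoint and anaphase genes, origin recognition and MCM genes, and the E2F and RB regulators. Of 41 listed genes, 30 had a probe set that names them alone, out of 10844 genes so named on the array, and each of the 30 had 1 probe set. Probe sets were matched to the listed genes by symbol alone, but the list was chosen with earlier results of these data known. The 30 members were read as 20 G1/S members, which act from the decision to replicate up to DNA synthesis, and 10 mitotic members. The other 11 (CycA, Cdk1, stg, polo, aurA, BubR1, Top2, geminin, Orc6, Mcm7 and RnrS) were not analysed here.

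The values are intensities from 1-colour arrays hybridised with total RNA of cultured Drosophila melanogaster embryo cells, 4 arrays in all. All samples are negative fractions, the unlabelled cells left after fluorescence-activated sorting. The Gad1-negative samples (a and b) were left after removal of neurons in which a 2.1 kb promoter of Gad1, the gene of the GABA-synthesising enzyme, drove the red protein dsRed1 as a direct fusion. The Cha-negative samples (a and b) were left by sorts of 3 to 5 day cultures in which cholinergic neurons carried GFP. For the Gad1 sorts the labels give no culture age, and they name no driver of the GFP, so that age and sorting scheme cannot be told apart. They also leave unsaid if samples a and b had different cultures as their source, and p-values cover only the spread between these arrays. A negative fraction is a mixture of cell types, and fewer cells of a type cannot be told apart from less RNA per cell.

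Before a cell replicates its DNA, the CycD-Cdk4 and CycE-Cdk2 kinases inactivate Rbf, the RB protein of the fly, and release E2F transcription factors, which switch on genes of DNA synthesis. Origins are licensed when the origin recognition complex and dup, the fly Cdt1, load the ring of MCM proteins that later unwinds the DNA. Mitosis is driven by the cyclin B kinases and ends when the anaphase-promoting complex, with fzy or fzr as its activator, has the securin pim and the cyclins destroyed. In embryonic nervous tissue these genes are used by neuroblasts and other dividing cells, and mature neurons have left the cycle.

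Markers of several cell classes were detected in all 4 samples. The 7 neuroblast markers were above the floor of 44.9, under which intensities were set to that value, in every sample. Their summed intensity was 8284 and 4166 in Gad1-negative a and b, against 3320 and 3742 in Cha-negative a and b. Much of that sum is mira, with 4094.3 and 1825.9 in Gad1-negative a and b, against 1102.9 and 1107.9 in Cha-negative a and b. Of the 7, 2 (mira and wor) read higher in both Gad1-negative samples and 1 lower in both, and the median log2 difference was 0.11. The 5 neuron markers measured summed to 703.4 and 2234 in Gad1-negative a and b, against 1418 and 1655 in Cha-negative a and b. The 5 haemocyte markers summed to 2074 and 587.7 in Gad1-negative a and b, against 2267 and 1015 in Cha-negative a and b. Values under the floor occurred in the neuron, haemocyte and germ line lists, and no marker was listed at 0. RNA quality was read from control probe sets at both ends of a transcript. For GAPDH the 3' signal over the 5' signal was 23.9 and 38.04 in Gad1-negative a and b, against 144.1 (a lower bound) and 185.3 in Cha-negative a and b. For actin it was 82.05 and 106.5 in Gad1-negative a and b, against 59.42 and 124.5 in Cha-negative a and b, with overlap. For eIF-4a it was 229.8 and 77.11 in Gad1-negative a and b, against lower bounds of 320.8 and 935.4 in Cha-negative a and b, so that GAPDH and eIF-4a separate the groups and actin does not. The part of RNA quality in any member's difference was not tested.

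E2f1, Rbf, dup, Orc4, PCNA, RnrL and 4 of the 5 measured MCM genes read higher in both Gad1-negative samples than in both Cha-negative samples, as did the mitotic genes Bub3 and fzy, but no member passed the test. Of the 30 members these 12 were higher in both, 1 was lower in both, and 17 overlapped. Over all 10844 genes the shares were 12.2% higher and 19.8% lower. A positive difference was found in 21 of the 30 members and in 41.7% of all genes. Among the genes tested, it was found in 16 of 24 members and in 47.7% of all genes. Of those 24 members 9 were higher in both, beside 14.7% of all genes tested. E2f1 and Mcm2 are among the 16 and the 9. Their Cha-negative means lay under the intensity filter, and they passed it through their Gad1-negative values. Nothing is therefore read from the counts among genes tested. The 12 comprise 10 of the 20 G1/S members and 2 of the 10 mitotic members, and the difference between these 2 shares was not tested. With each array centred on its median the count was 16 higher and 0 lower, where all genes gave 27.0% higher and 13.9% lower. Limma called 0 of the 24 members that lay above the intensity filter at an adjusted p under 0.05, and 0 of all 6991 genes tested (0%). At an unadjusted p under 0.05 limma had 1 member, E2f1, on the higher side, where 2.09% of all genes tested had the same. E2f1 passed the filter through its Gad1-negative values alone, so nothing is read from this count. For a single gene, permuting 2 and 2 samples exactly has 0.333 as its smallest two-sided p.

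**Figure D1:**
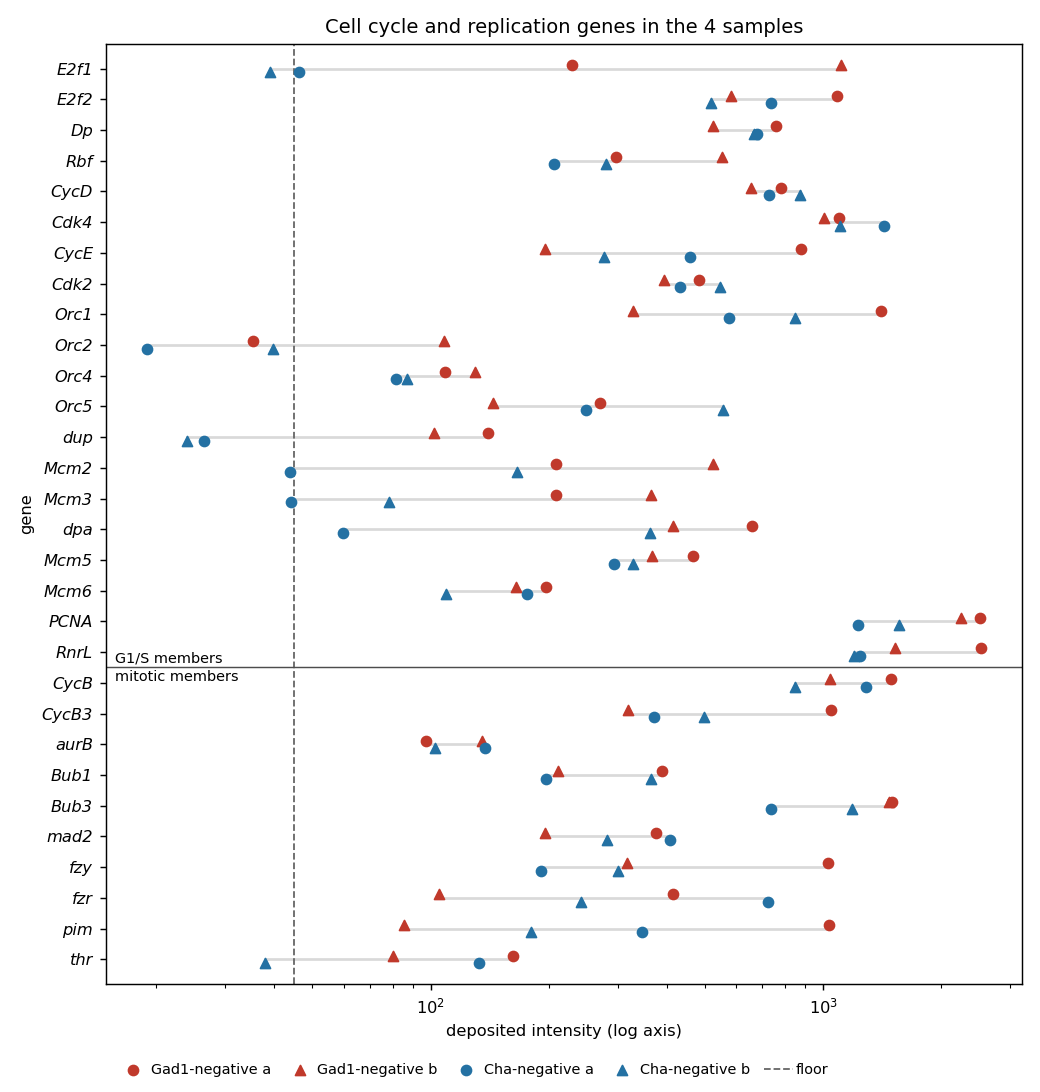
Deposited intensity (horizontal log axis) of the 30 members in each of the 4 samples, 1 row per gene, with G1/S members above the line and mitotic members under it. Red points are Gad1-negative and blue points Cha-negative, circles are a and triangles b, and the dashed line is the floor of 44.9. E2f1, dup, Mcm2 and Mcm3 have their red points to the right of both blue points, and the mitotic rows mostly mix the colours.

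The E2F and RB genes set the pace of S-phase entry, and among them E2f1 had the largest difference as computed with the floor. E2f1, the activating E2F of the fly, read 229.7 and 1112.1 in Gad1-negative a and b, against 46.2 and 39.0 in Cha-negative a and b. Both Cha-negative values lie at or near the floor, and the Gad1-negative samples are themselves 2.28 apart on the log2 scale. With Cha-negative b set to the floor, the log2 difference, Gad1-negative minus Cha-negative, was 3.47 ± 0.97 (SE, 2 samples a group), limma adjusted p = 0.925, and its 95% interval ran from 1.23 to 5.72. Nothing is read from this interval, as E2f1 passed the intensity filter through its Gad1-negative values alone. The size of the difference depends on the floor and was 2.65 with the floor at the 30th percentile. It was 2.33 without Gad1-negative b and 4.61 without Gad1-negative a.

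The partners and opponents of E2f1 differed less. E2f2, the repressing E2F, read 1082.5 and 584.1 in Gad1-negative a and b, against 736.3 and 517.9 in Cha-negative a and b. Its groups overlap, and the log2 difference was 0.36 ± 0.58. Dp, the binding partner that both E2F proteins need, read 756.6 and 523.2 in Gad1-negative a and b, against 679.9 and 665.4 in Cha-negative a and b (log2 difference -0.10 ± 0.53, but 0.15 with each array centred on its median). The Dp values of the Cha-negative samples lie between those of the Gad1-negative samples. Rbf, which binds and restrains E2F, read 296.5 and 551.8 in Gad1-negative a and b, against 206.1 and 280.1 in Cha-negative a and b. Both Gad1-negative values of Rbf are above both Cha-negative values, by a narrow margin for Gad1-negative a, with a log2 difference of 0.75 ± 0.63. E2f1 and Rbf shared the order of the samples within Gad1-negative, b above a, and E2f2 and Dp had the opposite order.

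The MCM genes, which encode the helicase ring loaded at origins, had positive differences in 5 of 5 measured members, beside 41.7% of all genes measured. Their median was 1.83 on the log2 scale, against -0.05 for all genes measured. Relative to each gene's mean over the 4 samples, their median was -1.51 in Cha-negative a but -0.13 in Cha-negative b. It was 0.38 and 0.58 in Gad1-negative a and b. Mcm2 read 209.0 and 524.2 in Gad1-negative a and b, against 43.9 and 166.4 in Cha-negative a and b. The groups do not overlap, and Cha-negative a lies under the floor. The log2 difference of Mcm2 was 1.94 ± 0.94 (limma adjusted p = 0.925), and it was 0.99 without Cha-negative a. Mcm3 read 208.4 and 363.4 in Gad1-negative a and b, against 44.1 and 78.2 in Cha-negative a and b. Its log2 difference was 2.22 with Cha-negative a at the floor, and its mean lay just under the intensity filter, so that it was not tested. The gene dpa, which encodes the fly Mcm4, read 658.3 and 415.5 in Gad1-negative a and b, against 59.7 and 363.2 in Cha-negative a and b. Here Cha-negative a alone is low, while Cha-negative b is close to Gad1-negative b. The log2 difference of dpa was 1.83 ± 0.91, but 0.53 once Cha-negative a was left out, and 3.13 once Cha-negative b was.

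The remaining MCM members had smaller differences. Mcm5 read 466.0 and 366.1 in Gad1-negative a and b, against 293.2 and 327.1 in Cha-negative a and b (log2 difference 0.42 ± 0.56). Its groups do not overlap, but the gap between the nearest samples is small. Mcm6 read 196.8 and 165.3 in Gad1-negative a and b, against 175.7 and 109.6 in Cha-negative a and b, with overlapping groups and a log2 difference of 0.38 ± 0.78. The 5 proteins belong to one ring in the cell, and the log2 differences of their genes ran from 0.38 to 2.22, and the 3 above 1 (Mcm2, Mcm3 and dpa) are those in which Cha-negative a was under or close to the floor.

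Genes of origin recognition and licensing had differences of both signs. The licensing factor gene dup read 139.9 and 101.8 in Gad1-negative a and b, against 26.5 and 24.0 in Cha-negative a and b. Both Cha-negative values lie under the floor, so dup was at least 2.66-fold higher in Gad1-negative, and it lay under the intensity filter and was not tested. Orc4, a subunit of the origin recognition complex, read 108.9 and 129.6 in Gad1-negative a and b, against 81.5 and 86.9 in Cha-negative a and b, without overlap but also under the filter. Its log2 difference of 0.50 is small beside that of dup. Orc2 exceeded the floor in Gad1-negative b alone, at 108.0, with 35.2 in Gad1-negative a, against 19.0 and 39.7 in Cha-negative a and b. Of the 4 values 3 are under the floor, so no fold is given. Orc2 enters the counts and medians of measured members with those values at the floor.

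Orc5 was the G1/S member with the most negative difference. It read 269.7 and 144.0 in Gad1-negative a and b, against 248.2 and 557.3 in Cha-negative a and b. The groups overlap and Cha-negative b is the high sample, with a log2 difference of -0.92 ± 0.71 that was -0.33 without Cha-negative b and -0.46 without Gad1-negative b. Orc1, the ATPase subunit whose gene is a known E2F target in the fly, read 1401.6 and 328.2 in Gad1-negative a and b, against 577.1 and 849.4 in Cha-negative a and b. The highest and the lowest value of Orc1 are thus both Gad1-negative, and its log2 difference of -0.05 ± 0.75 became 0.04 after quantile normalization and 0.20 with each array centred on its median.

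PCNA and RnrL, which serve DNA synthesis itself, read higher in both Gad1-negative samples. PCNA, the sliding clamp of DNA polymerase, read 2508.1 and 2250.1 in Gad1-negative a and b, against 1226.5 and 1557.3 in Cha-negative a and b. The groups are well apart relative to the gaps within them, and the log2 difference was 0.78 ± 0.52, limma adjusted p = 0.925, and its 95% interval ran from -0.43 to 1.99. RnrL, the large subunit of the reductase that makes deoxynucleotides, read 2521.1 and 1528.6 in Gad1-negative a and b, against 1240.0 and 1200.8 in Cha-negative a and b. The Cha-negative values of RnrL are nearly equal, and its log2 difference was 0.69 ± 0.54. With any 1 sample left out, PCNA differed by 0.61 to 0.95 and RnrL by 0.33 to 1.05 on the log2 scale. None of their values was near the floor.

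G1 cyclins and their kinases showed no such pattern. Of the 4, 3 had a negative log2 difference and 1 a positive one, with a range from -0.25 to 0.22. CycD, the cyclin of Cdk4, read 780.7 and 656.7 in Gad1-negative a and b, against 728.5 and 873.9 in Cha-negative a and b (log2 difference -0.16 ± 0.52). Cdk2, the kinase of CycE, read 481.4 and 393.8 in Gad1-negative a and b, against 430.9 and 545.5 in Cha-negative a and b (log2 difference -0.16 ± 0.54). Both overlap between the groups and their log2 differences became 0.09 with each array centred on its median. Cdk4 was the only member lower in both, at 1099.2 and 1005.9 in Gad1-negative a and b, against 1427.0 and 1102.5 in Cha-negative a and b. Gad1-negative a and Cha-negative b nearly coincide for Cdk4, and the log2 difference was -0.25 ± 0.52. CycE, the cyclin that starts S phase, read 878.3 and 195.7 in Gad1-negative a and b, against 456.8 and 276.1 in Cha-negative a and b, so that the extremes are again both Gad1-negative (log2 difference 0.22 ± 0.80).

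**Figure D2:**
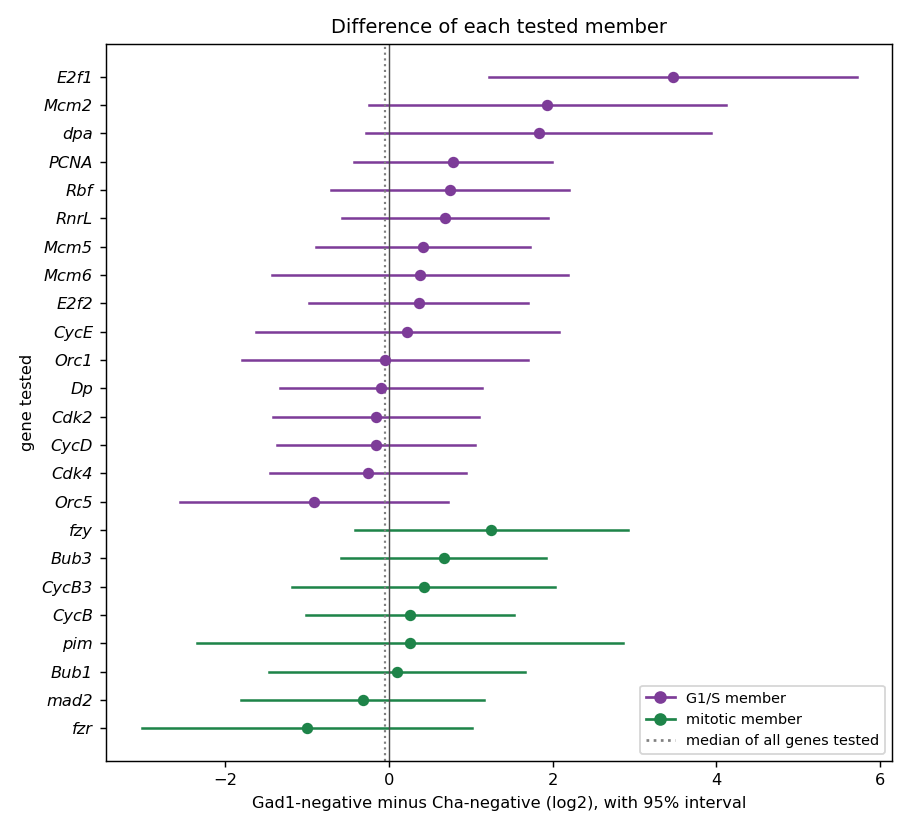
Log2 difference, Gad1-negative minus Cha-negative, of the 24 members tested (points) with the 95% interval of the limma fit (bars), in purple for G1/S and green for mitotic members; the dotted line is the median of all genes tested. The interval of E2f1 does not reach 0 and those of the other 23 do. E2f1 and Mcm2 had Cha-negative means under the filter and passed it through their Gad1-negative values, so nothing is read from where their intervals lie. The size for E2f1 is set by the floor.

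In most mitotic members Gad1-negative a read above b. Their median log2 difference was 0.26 over the 8 tested and 0.26 over the 10 measured, against 0.37 over the 16 tested and 0.46 over the 20 measured G1/S members and -0.04 over all genes tested. The tested G1/S median includes E2f1 and Mcm2, which passed the filter through their Gad1-negative values. With the filter at the 60th percentile, which leaves out both, the order of the phases was the opposite, 0.34 for mitotic and 0.22 for G1/S members. CycB, the cyclin of the mitotic kinase Cdk1, read 1486.5 and 1043.7 in Gad1-negative a and b, against 1283.3 and 845.5 in Cha-negative a and b (log2 difference 0.26 ± 0.55). In both groups a is above b and the groups interleave. CycB3, a further mitotic cyclin, read 1044.6 and 318.2 in Gad1-negative a and b, against 371.2 and 496.7 in Cha-negative a and b (log2 difference 0.43 ± 0.69). Gad1-negative a holds the highest value and Gad1-negative b the lowest. The kinase of the chromosomal passenger complex, aurB, read 97.4 and 135.1 in Gad1-negative a and b, against 137.3 and 102.4 in Cha-negative a and b, under the filter and with a log2 difference of -0.05.

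In the spindle checkpoint, which holds anaphase until every chromosome is attached, 1 of 3 members separated the groups. Over all genes measured 12.2% were higher and 19.8% lower in both Gad1-negative samples, so nothing is read from this count. Bub3, which docks the checkpoint kinases at kinetochores, read 1501.7 and 1473.9 in Gad1-negative a and b, against 737.8 and 1187.6 in Cha-negative a and b. The Gad1-negative values are nearly equal and above both others, with a log2 difference of 0.67 ± 0.54 that was 0.33 without Cha-negative a. Bub1, a checkpoint kinase, read 389.6 and 211.3 in Gad1-negative a and b, against 196.6 and 364.6 in Cha-negative a and b (log2 difference 0.10 ± 0.67). The inhibitor of fzy, mad2, read 376.0 and 195.6 in Gad1-negative a and b, against 408.1 and 281.6 in Cha-negative a and b (log2 difference -0.32 ± 0.64). For both Bub1 and mad2 the gap within the Gad1-negative samples is larger than the difference between the group means.

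Among the anaphase genes every Gad1-negative pair was more than 2-fold apart. The activator gene fzy, the fly Cdc20, read 1028.9 and 316.3 in Gad1-negative a and b, against 191.1 and 299.5 in Cha-negative a and b. The groups do not overlap, but Gad1-negative b is close to Cha-negative b, and the log2 difference of 1.25 ± 0.72 was 0.40 without Gad1-negative a. The securin gene pim read 1036.3 and 85.7 in Gad1-negative a and b, against 346.0 and 180.4 in Cha-negative a and b. Both Cha-negative values of pim lie between the Gad1-negative ones, and the log2 difference was 0.25 ± 1.12. The other activator, fzr (the fly Cdh1, which acts late in mitosis and in G1), read 414.6 and 105.1 in Gad1-negative a and b, against 724.2 and 241.3 in Cha-negative a and b (log2 difference -1.0 ± 0.87). This was the most negative difference among the members, but it was -0.012 without Gad1-negative b and -0.21 without Cha-negative a. In both groups a is above b. The gene thr, for a subunit of the fly separase, read 162.5 and 80.0 in Gad1-negative a and b, against 133.0 and 37.9 in Cha-negative a and b, under the filter and with overlapping groups.

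Across samples the G1/S and the mitotic members did not follow the same order. Each gene's log2 level was taken relative to its mean over the 4 samples, and the median over genes was used. The G1/S members measured stood at 0.35 and 0.05 in Gad1-negative a and b, against -0.29 and -0.18 in Cha-negative a and b. Over the 16 tested G1/S members, without Orc2, Orc4, dup and Mcm3, the medians were 0.35 and -0.10 in Gad1-negative a and b, against -0.19 and -0.09 in Cha-negative a and b. The Gad1-negative medians are thus above both Cha-negative medians when members under the filter are counted, and the groups overlap without them. The mitotic members measured stood at 0.49 and -0.31 in Gad1-negative a and b, against 0.20 and -0.24 in Cha-negative a and b. Here Gad1-negative a is highest and Gad1-negative b lowest. Gad1-negative a read above b in 9 of 10 mitotic members and in 14 of 20 G1/S members, against 49.3% of all genes measured. Over the genes tested it did so in 8 of 8 mitotic and 13 of 16 G1/S members, against 55.8% of all genes. In the Cha-negative samples a read above b in 6 of 10 mitotic and 7 of 20 G1/S members, against 48.6% of all genes measured. Tied values, as when both lie at the floor, count as not above in these shares. In Cha-negative b read above a in 4 mitotic and 11 G1/S members. Over all genes measured a was above b in 5270 and b above a in 4670 for Cha-negative, and in 5346 and 4122 for Gad1-negative.

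**Figure D3:**
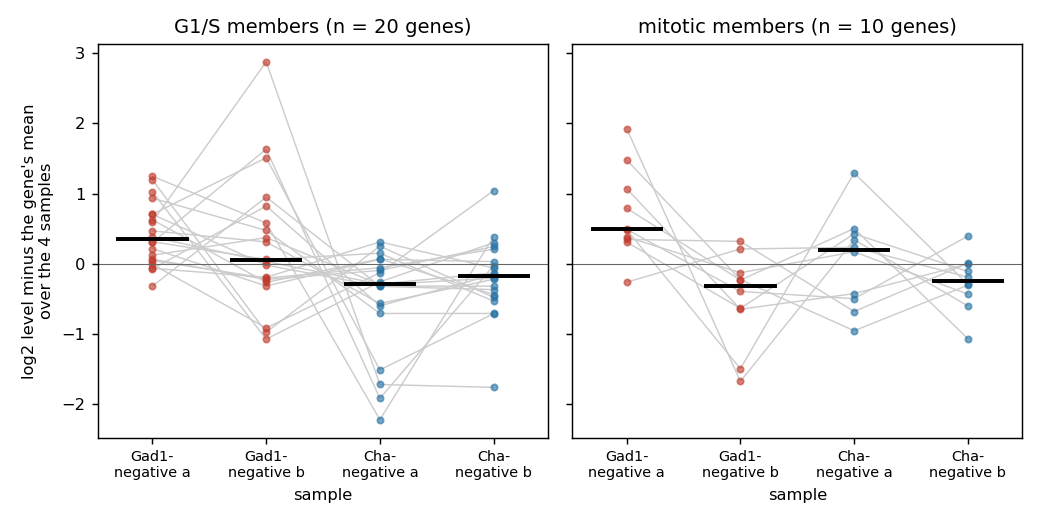
Log2 level of each member minus its own mean over the 4 samples (vertical axis), by sample (horizontal axis), for the 20 G1/S members (left) and the 10 mitotic members (right). Points are genes (red Gad1-negative, blue Cha-negative), grey lines join the values of a gene, and black bars are medians. The G1/S bars lie at 0.35 and 0.05 in the Gad1-negative samples and at -0.29 and -0.18 in the Cha-negative samples, and Gad1-negative b would be at -0.10 without members under the filter. The mitotic bars lie at 0.49 and -0.31 in Gad1-negative and at 0.20 and -0.24 in Cha-negative.

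The difference between the phases therefore depended on which samples were set against each other. Over the tested members the G1/S median exceeded the mitotic median by 0.12 on the log2 scale. The tested G1/S members include E2f1 and Mcm2, which passed the filter through their Gad1-negative values, so nothing is read from this excess. Taken pair by pair, Gad1-negative a gave -0.39 against Cha-negative a and -0.20 against Cha-negative b, while Gad1-negative b gave 0.15 and 0.75 against the same samples. Without Gad1-negative a the G1/S median was 0.08 and the mitotic median -0.39, and without Gad1-negative b they were 0.70 and 0.61. Neither phase thus kept the size of its shift without 1 of the Gad1-negative samples, and the mitotic median changed sign. The 5 haemocyte markers had the same order of samples as the mitotic members, with centred medians of 0.84 and -1.04 in Gad1-negative a and b, against 0.42 and -0.43 in Cha-negative a and b. The neuroblast markers were also highest in Gad1-negative a, with 0.73 and -0.10 in Gad1-negative a and b, against -0.19 and -0.06 in Cha-negative a and b. The neuron markers stood at -0.63 and 1.18 in Gad1-negative a and b, against -0.21 and 0.37 in Cha-negative a and b. The muscle markers summed to 5210 and 9210 in Gad1-negative a and b, against 3549 and 2225 in Cha-negative a and b. Of these 5, 3 read higher in both Gad1-negative samples and 1 lower in both. The muscle genes Prm, Mlc2 and Tm2 had log2 differences of 3.15, 1.87 and 0.66, against -1.18 for sns and -0.27 for up. Prm had a Cha-negative mean under the intensity filter and passed it through its Gad1-negative values. The germ line markers summed to 1725 and 274.8 in Gad1-negative a and b, against 3235 and 1890 in Cha-negative a and b, with 2 of 4 lower in both. Of these, osk was under the floor in both Gad1-negative samples, with 1176.6 and 171.1 in Cha-negative a and b. The glia markers summed to 3486 and 2589 in Gad1-negative a and b, against 2135 and 4035 in Cha-negative a and b. Some markers of each list other than haemocyte thus separated the groups, while in every list other markers overlapped. The part of cell makeup in the members' differences or order was not tested.

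Replicate gaps over 2-fold were about as common in the members as in all genes for Gad1-negative, and less common for Cha-negative. A gap over 2-fold separated the Gad1-negative samples in 10 of 30 members (33.3%) and the Cha-negative samples in 5 (16.7%). Over all genes measured these shares were 32.3% and 30.7%. In the anaphase group 4 of 4 members had such a gap in Gad1-negative, and in the clamp and reductase group 0 of 2.

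**Figure D4:**
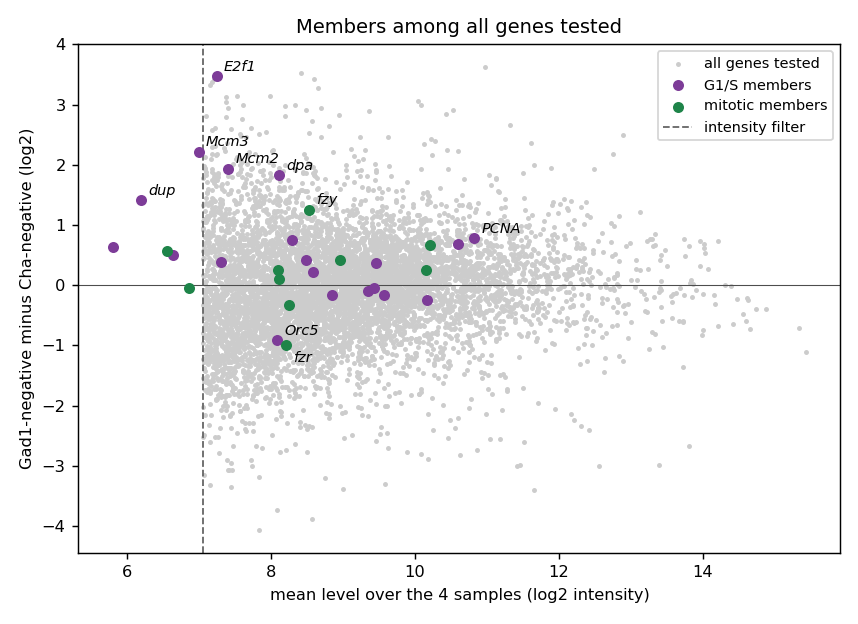
Log2 difference, Gad1-negative minus Cha-negative (vertical axis), against the mean log2 intensity over the 4 samples (horizontal axis), for the 6991 genes tested (grey), G1/S members (purple) and mitotic members (green), with the intensity filter as a dashed line. The 6 members left of it were not tested, and values under the floor are drawn at the floor. E2f1, Mcm2, Mcm3 and dup lie close to or left of the filter, and PCNA lies far to the right of it with a difference of 0.78.

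Other genes of the replication machinery were also mostly on the positive side, again with none past the test. In the list of replication fork and initiation genes, 26 of 27 were measured, 18 had a positive difference, and the median log2 difference was 0.37. Of the 26, 12 read higher in both Gad1-negative samples (46.2%) and 4 lower in both (15.4%), beside 12.2% and 19.8% of all genes measured. RfC4, a subunit of the clamp loader, read 3442.3 and 2252.7 in Gad1-negative a and b, against 953.0 and 1502.3 in Cha-negative a and b (log2 difference 1.22 ± 0.56). RPA3, of the single-strand binding complex, read 2857.9 and 2307.2 in Gad1-negative a and b, against 937.1 and 1425.8 in Cha-negative a and b (log2 difference 1.15 ± 0.54). Both are well above the floor and without overlap. Psf1, of the GINS complex that works with the MCM ring, read 180.5 and 446.9 in Gad1-negative a and b, against 25.4 and 124.1 in Cha-negative a and b. Its log2 difference of 1.93 ± 0.93 has Cha-negative a at the floor, as for Mcm2. Psf1 also had a Cha-negative mean under the intensity filter and passed it through its Gad1-negative values, so nothing is read from its place in the list.

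Chromosome segregation genes were mostly on the positive side. Of 22 measured, 20 had a positive difference (90.9%, beside 41.7% of all genes measured), and the median log2 difference was 0.39. Of the 18 tested, 16 had a positive difference (88.9%, beside 47.7% of all genes tested). Of the 22, 7 read higher in both Gad1-negative samples (31.8%) and 1 lower in both (4.55%), beside 12.2% and 19.8% of all genes measured. The condensin gene SMC2 read 1077.2 and 411.6 in Gad1-negative a and b, against 351.7 and 93.3 in Cha-negative a and b (log2 difference 1.88 ± 0.82). The midzone protein gene feo differed by 1.34 ± 0.73 and the spindle kinesin gene Klp61F by 1.01 ± 0.60, both with groups that do not overlap. Subunits of the anaphase-promoting complex had both signs, 4 of 8 positive with a median of -0.04. Cdc23 read 399.5 and 393.6 in Gad1-negative a and b, against 656.6 and 667.4 in Cha-negative a and b, a log2 difference of -0.74 ± 0.52. The subunit genes shtd and APC4 differed by 0.77 ± 0.84 and -0.27 ± 0.54.

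The 16 measured genes of the remaining regulators had a median log2 difference of 0.08, with 9 positive. Cks30A, which binds cyclin-dependent kinases, read 2992.5 and 463.3 in Gad1-negative a and b, against 485.1 and 461.7 in Cha-negative a and b. Gad1-negative a alone is high, and the log2 difference was 1.32 ± 0.86. The inhibitor of fzr, Rca1, differed by 0.49 ± 0.53 without overlap between the groups, and the checkpoint kinase lok by -0.51 ± 0.54. No gene of these 4 lists was called by limma at an adjusted p under 0.05, and 0 had an unadjusted p under 0.05.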

How the data were processed

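Each deposited value is a linear intensity of a probe set in a sample. The authors' processing left the 2%-trimmed means of the 4 columns equal at 500.1; the software is not given in the sources used here, and, as no build goes with the probe sets, coordinates are left out. Of 14010 probe sets, 44 were controls, 12443 named 1 gene, 327 several and 1196 none; symbols were updated through Entrez identifiers. The brightest probe set stood for its gene. A floor at the 20th percentile of the intensities (44.9) replaced lower ones before log2, and the 6991 genes whose mean reached the 40th percentile of non-control probe sets (log2 7.05) were tested. Limma 3.58.1 in R 4.3.3 (lmFit, then eBayes using the trend; 2 residual degrees of freedom; two-sided) gave differences with Benjamini-Hochberg adjustment over all genes tested, at 0.05. The code was tested on simulated data. Python 3.11.15, pandas 2.3.3 and matplotlib 3.10.9 made tables and figures. Depth does not apply to arrays; their number limits the precision, and the median 95% interval reached 1.51 (log2) to either side. Between 15.8% and 24.3% of probe sets per sample lay under the floor.

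The members, lists and alternatives were chosen with earlier results of these data known. Every measured member is named, with the 3 tested genes of smallest p from each further list; promoter motifs were not analysed here. The lists of cell type markers were neuroblast, neuron, glia, muscle, haemocyte and germ line; the last 4 had median log2 differences of -0.15, 0.66, -0.32 and -1.42. Alternatives were other normalizations, floors, filters, probe set rules, moderation, the replicate letter as a block and leaving out each sample.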

Additional observations from a re-analysis of the deposited data

How the results depend on the processing

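No member and no gene on the array was called by limma under any alternative; the members' smallest adjusted p was 0.421, for E2f1 with the replicate block. With the letter as a replicate block 0 genes were called and 601 had an unadjusted p under 0.05, against 345 without it. That count was 718 with no filter, 213 with the filter at the 60th percentile, and 256 to 521 with 1 sample left out. The labels do not say what the letters share; over genes, a minus b correlated between the groups at r = 0.251, on 2 pairs. Median centring put the median of all genes at 0.20, against -0.04 as deposited, and the G1/S median at 0.62. It moves every gene's difference by the same amount, so medians relative to all genes could not change. These were 0.42 for G1/S and 0.30 for mitotic members. After quantile normalization they were 0.45 and 0.38.

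With the filter at the 60th percentile and all samples kept, the G1/S median was 0.22, the mitotic median 0.34 and their difference -0.12, against 0.12 as reported. With 1 sample left out, the lone sample being assumed to vary like the others, the G1/S median ran from 0.081 to 0.70, the mitotic median from -0.39 to 0.61 and their difference from -0.079 to 0.47. Members with every Gad1-negative sample above every Cha-negative sample were also counted with 1 sample left out, an alternative chosen after seeing the data. Their count ran from 13 to 22. Omitting Gad1-negative a gave 13, beside 26.2% of all genes, and omitting Cha-negative b gave 13, beside 25.1%. Omitting Cha-negative a gave 16, beside 22.1%, and omitting Gad1-negative b gave 22, beside 28.3%. All 4 samples gave 12, beside 12.2%. In these alternatives 17 to 23 of 30 had a positive difference, beside 38.0% to 42.9% of all genes. Of 24 members tested, 13 kept their sign under all 14 alternatives that gave a value. As median centring moves every gene's difference by the same amount, members slightly below 0 turned positive. Dp read 0.15, CycD 0.089, Cdk2 0.090 and Orc1 0.20. Orc1 was 0.039 after quantile normalization, and the cause of that change was not tested. Leaving out 1 sample changed the sign of E2f2 (-0.080 to 0.81), Dp (-0.36 to 0.17), CycE (-0.86 to 1.31), Cdk2 (-0.33 to 0.015), Orc1 (-1.09 to 1.00), CycB (-0.043 to 0.56), CycB3 (-0.43 to 1.28), Bub1 (-0.35 to 0.55), mad2 (-0.79 to 0.15) and pim (-1.54 to 2.05). Members near the floor, such as E2f1 (2.65 with the floor at the 30th percentile), have sizes set by it. Leaving out members that act in more than 1 phase removed fzr alone.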
